A study of Homo sapiens with 12 samples.

Results

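The genes described here are 40 genes of the autophagy machinery and its cargo receptors, taken by symbol from the 43236 gene symbols counted in MNNG/HOS cells. MNNG/HOS is a human osteosarcoma line, a chemically transformed derivative of HOS. RNA was collected after 6 h or 24 h of DMSO, the solvent control, or of 300 nM NXP800, a compound made to inhibit HSF1 signalling that has been linked to the integrated stress response. Each of the 4 conditions had 3 libraries, so that the data hold 12 in all. All are from this single line, and no engineered genetic change is described for them. The sample titles read HOS, and the name MNNG/HOS comes from the study's methods. Nothing in the labels says that the replicates were separate cultures, and the p-values then measure only the spread between these libraries. The comparisons ask which steps of autophagy changed at the level of transcripts, and whether the response at 24 h differed from that at 6 h.

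Autophagy encloses part of the cytoplasm in a double membrane, the autophagosome, and delivers it to the lysosome. The ULK1 kinase complex starts the process when mTORC1 no longer inhibits it or AMPK activates it. A lipid kinase complex around VPS34 (*PIK3C3*) and Beclin 1 (*BECN1*) then marks the forming membrane with PI3P, WIPI and ATG2 proteins expand it, and a ubiquitin-like cascade attaches ATG8 proteins (the LC3 and GABARAP families) to its lipids. Receptors such as p62 (*SQSTM1*) tie ubiquitinated cargo to ATG8 proteins, and syntaxin 17 and EPG5 serve the fusion with lysosomes. LC3B and p62 are themselves consumed in lysosomes, so that the cell must replace them, and their transcripts say nothing of the rate of degradation.

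RefSeq promoter windows (GRCh38.p14, 250 bases before to 50 after the transcription start) were found for 33 of the 40 genes, in 41 windows, and 7 had none (*RB1CC1*, *BNIP3L*, *UVRAG*, *ATG4D*, *MAP1LC3A*, *STX17* and *EPG5*). The 120 bases before the start are shown for the 4 genes with the largest rises at 6 h among those with a window. All 4 lie on the plus strand, at chr12:131894502-131894621 (*ULK1*), chr16:87392216-87392335 (*MAP1LC3B*), chr12:10212757-10212876 (*GABARAPL1*) and chr17:48830915-48831034 (*CALCOCO2*). Capitals mark the CRE core TGACGT, the core of the site bound by CREB and ATF proteins, on either strand.
ULK1: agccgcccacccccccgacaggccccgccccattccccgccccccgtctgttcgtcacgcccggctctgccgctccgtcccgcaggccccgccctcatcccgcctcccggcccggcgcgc
MAP1LC3B: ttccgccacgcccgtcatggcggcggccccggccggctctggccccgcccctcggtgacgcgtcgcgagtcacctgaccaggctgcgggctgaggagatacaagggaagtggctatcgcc
GABARAPL1: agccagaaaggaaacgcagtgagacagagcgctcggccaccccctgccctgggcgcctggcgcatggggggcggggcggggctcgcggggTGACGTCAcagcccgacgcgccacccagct
CALCOCO2: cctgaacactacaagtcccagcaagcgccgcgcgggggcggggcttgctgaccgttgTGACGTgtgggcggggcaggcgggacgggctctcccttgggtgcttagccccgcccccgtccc
In *GABARAPL1* the core began 30 bases before the start and overlapped a second match on the other strand. In *CALCOCO2* it began 63 bases before the start, and the stretches of *ULK1* and *MAP1LC3B* held none. Over the whole windows, the CRE core, a motif added after these sequences had been seen, occurred in 4 of 41 windows (9.76%, *ATG3*, *ATG10*, *GABARAPL1* and *CALCOCO2*) against 7.98% of all 35116 windows. The C/EBP-ATF core TGATGNAA occurred in 0 of 41 windows against 3.62%. The E-box CACGTG, the core of the site bound by TFEB, occurred in 3 windows (7.32%, *ATG3*, *ATG14* and *BNIP3*) against 7.26%, the FOXO motif GTAAACA in 1 (2.44%, *CALCOCO2*) against 3.42%, and the heat shock element GAANNTTC in 2 (4.88%, *TAX1BP1* and *GABARAPL2*) against 6.77%. Both strands were searched. These are matches of letters in a short window, and no binding was measured.

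All 40 genes passed the filter on low counts. The lowest count of any of them in a library was 11, for *MAP1LC3A*, at a depth of 30810614 to 31947656 gene counts per library. Values below are CPM, counts scaled to a common library total by TMM, given as single libraries in the order of replicates 1 to 3 or as mean ± SD (n = 3). A gene is called when edgeR's quasi-likelihood test gave an adjusted p below 0.05 over the 15979 genes tested. Read pairs on no annotated gene made up 6.66 to 8.14% in the 6 h libraries and 2.73 to 3.67% in the 24 h libraries, so that NXP800 was compared only with DMSO of the same time. Among the fixed markers of the osteoblast lineage, *RUNX2*, *COL1A1*, *SPARC* and *SPP1* were present, whereas the other 5 did not pass the filter, with at most 1 count for *SP7* and at most 7 for *ALPL*. The summed level of this list of 9 markers was 765 to 953 CPM in DMSO and 518 to 612 CPM in NXP800 at 6 h, and 898 to 1080 CPM and 398 to 467 CPM at 24 h. The members of the list did not all move with that sum: *COL1A1* (-0.50 ± 0.16 and -0.76 ± 0.16 log2) and *SPARC* (-0.79 ± 0.12 and -2.02 ± 0.13) fell at both times, *RUNX2* rose at both (0.71 ± 0.11 and 0.36 ± 0.11), and *SPP1* fell at 24 h (-1.29 ± 0.29) and had -0.0089 ± 0.26 at 6 h. The part of these markers in the results was not tested. Markers of blood summed to at most 3.40 CPM in a library, those of endothelium to at most 1.83 CPM and those of epithelium, nearly all *EPCAM*, to 5.62 to 10.2 CPM. At these low levels *CD14* (-3.34 ± 0.43 and -2.07 ± 0.34 log2) and *VWF* (-1.33 ± 0.31 and -2.07 ± 0.39) fell at both times. *PECAM1* fell at 6 h (-1.17 ± 0.38) and was not called at 24 h (-0.56 ± 0.42). *EPCAM* was not called at 6 h (0.13 ± 0.10) and rose at 24 h (0.81 ± 0.10). As these are bulk samples, fewer cells of a kind and less RNA per cell cannot be told apart.

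At 6 h, 21 of the 40 genes rose (background: 25.0% of all genes tested were called higher), 5 fell (background 27.8%) and 14 were not called. At 24 h, 21 rose (background 27.5%), 8 fell (background 28.6%) and 11 were not called. The median log2 fold change of the 40 genes was 0.29 at 6 h and 0.19 at 24 h, against -0.0458 and -0.00334 for all genes tested. Of the 40, 18 were called higher at both times and 2 lower at both (*ATG16L1* and *PIK3R4*). The matching shares of all genes tested were not computed, so these 2 counts are descriptions only. *ATG4B* was called lower at 6 h and higher at 24 h. With the replicate number as a block, 23 rose and 7 fell at 6 h, and 23 rose and 8 fell at 24 h. Of the 15979 genes tested the block called 4622 higher and 5331 lower at 6 h, and 5117 and 5294 at 24 h. The response itself was smaller or more negative at 24 h than at 6 h for 10 genes (background 13.8%) and larger or more positive for 2 (background 12%). With the block these counts were 11 and 4, with *NBR1* added to the former (adjusted p = 0.0459) and *WIPI1* and *GABARAP* to the latter (adjusted p = 0.0126 and 0.0282). Over all genes tested the block gave 3339 lower and 2945 higher, where the main fit gave 2205 and 1924. Scaled by library size only, 6 were smaller and 2 larger, while over all genes tested the split turned from 1924 higher and 2205 lower to 2463 higher and 1670 lower.

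**Figure D1:**
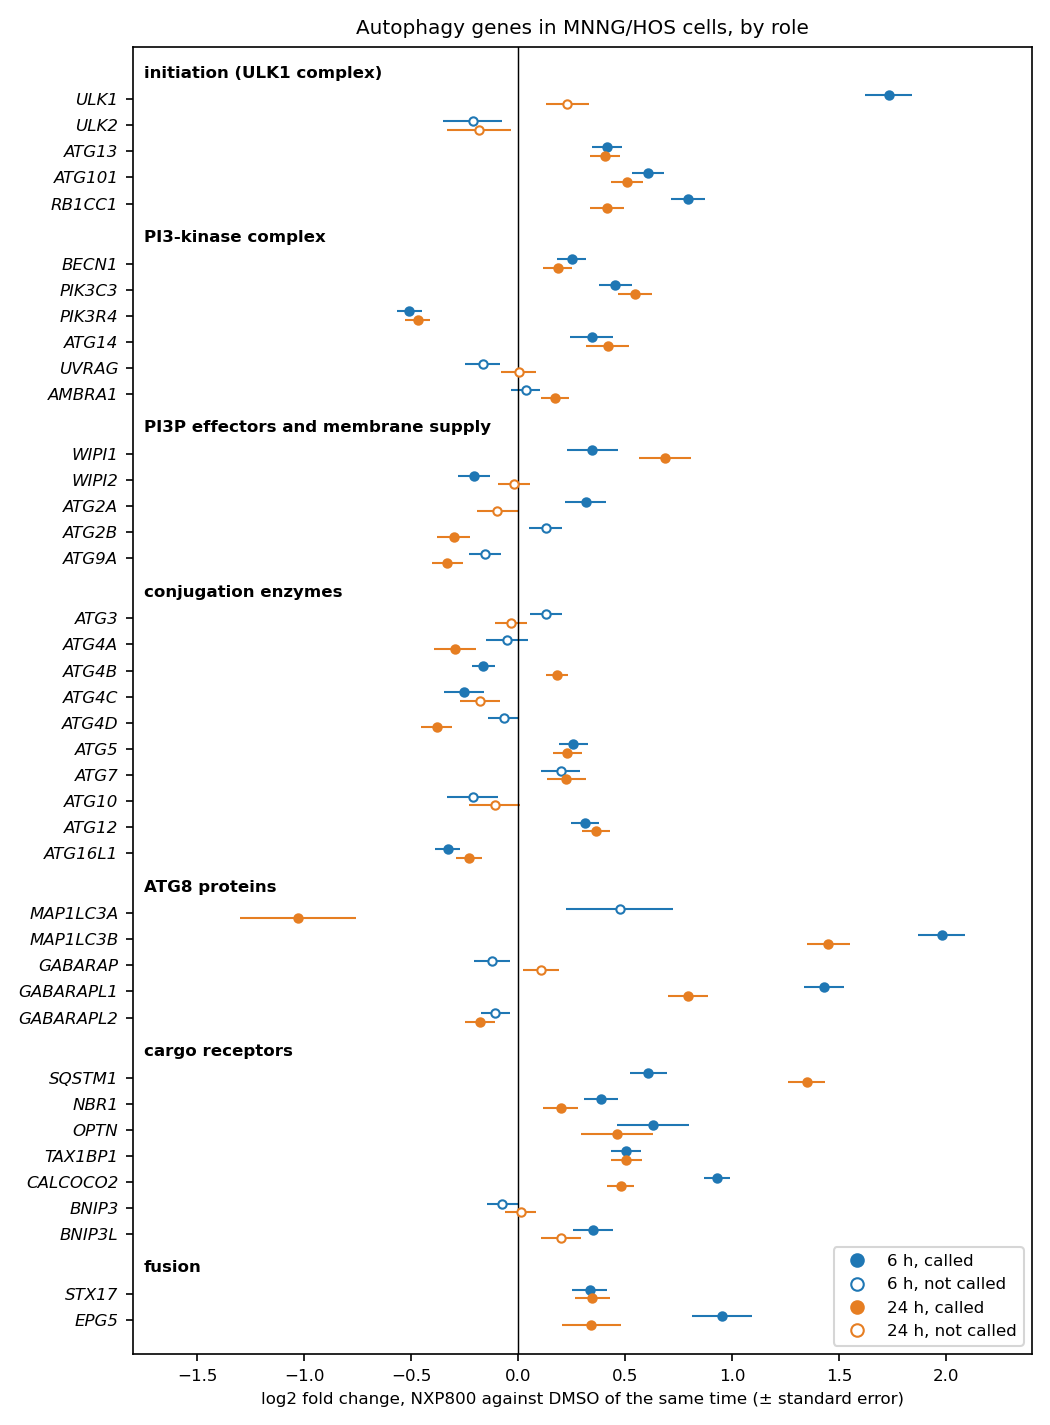
Log2 fold change of each of the 40 genes, NXP800 against DMSO of the same time, at 6 h (blue) and 24 h (orange), grouped by role. Bars are standard errors, and filled points passed the test; *MAP1LC3B*, *ULK1* and *GABARAPL1* lie farthest to the right at 6 h, at 1.98, 1.73 and 1.43.

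The plot by role shows where the changes sat. The cargo receptors (6 rose and 0 fell of 7 at 6 h, 5 and 0 at 24 h), the initiation genes (4 and 0 of 5, then 3 and 0) and both fusion genes moved upward where they were called. The shares of all genes tested given above (25.0% higher and 27.8% lower at 6 h, 27.5% and 28.6% at 24 h) apply to each role, and with so few genes in a role its counts are descriptions only. Of the conjugation enzymes, whose counts lay near these shares, 2 rose and 3 fell of 10 at 6 h, and 4 rose and 3 fell at 24 h. The lipid kinase complex had 3 rising and 1 falling of 6 at 6 h and 4 rising and 1 falling at 24 h. Among the PI3P effectors and membrane supply genes 2 rose and 1 fell of 5 at 6 h, and 1 rose and 2 fell at 24 h. Of the 5 ATG8 genes 2 rose at each time, and 2 fell at 24 h.

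*ULK1*, the kinase that starts autophagosome formation, rose at 6 h only by the test used here. Its level was 23.5, 20.5 and 27.4 CPM in DMSO and 87.0, 74.4 and 76.1 CPM in NXP800 at 6 h. At 24 h it was 34.1, 33.8 and 29.2 CPM in DMSO and 37.2, 41.9 and 34.7 CPM in NXP800. The groups did not overlap at either time, but the gap was wide at 6 h and narrow at 24 h. The change was 3.32-fold at 6 h (log2 1.73 ± 0.11 SE, adjusted p = 2.26e-09) and 1.17-fold at 24 h (log2 0.23 ± 0.10 SE, adjusted p = 0.0713). The latter was called in several alternatives, among them the replicate block (adjusted p = 0.0102) and the fit without NXP800 replicate 3 (adjusted p = 0.0381, log2 0.29). The response at 24 h was smaller by 1.50 ± 0.15 on the log2 scale (adjusted p = 3.66e-06). *ULK2*, its paralog, was the only initiation gene called at neither time. It had 9.03, 10.1 and 8.60 CPM in DMSO and 7.18, 7.80 and 8.87 CPM in NXP800 at 6 h. The 24 h libraries held 6.93, 7.43 and 6.11 CPM in DMSO and 6.67, 6.87 and 4.50 CPM in NXP800, and the groups overlapped at both times. Per kb of transcript, *ULK1* made up 81.4% ± 3.40 of the summed *ULK1* and *ULK2* level in DMSO and 94.4% ± 0.899 in NXP800 at 6 h. At 24 h these shares were 89.1% ± 0.393 and 91.6% ± 1.24.

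The scaffold subunits of the same complex rose at both times. *RB1CC1* (FIP200), which holds the complex together, had 75.2, 69.3 and 65.7 CPM in DMSO and 125, 124 and 115 CPM in NXP800 at 6 h. Its values at 24 h were 62.5, 63.0 and 68.2 CPM in DMSO and 75.2, 88.0 and 95.0 CPM in NXP800. The groups were apart at both times, with a 1.73-fold change at 6 h and a 1.33-fold change at 24 h. The difference of the responses, -0.38 ± 0.11 (adjusted p = 0.0232), was no longer called without DMSO replicate 3 or NXP800 replicate 1 or 2 of 6 h, or without DMSO replicate 3 of 24 h (adjusted p up to 0.0591, differences of -0.33 to -0.36). *ATG101* rose 1.52-fold and 1.42-fold, and *ATG13*, which it stabilises, 1.33-fold and 1.32-fold. In *ATG101* 19.2% of the annotated exon length is shared with a gene on the opposite strand.

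In the lipid kinase complex *PIK3C3* and *PIK3R4* moved in opposite directions, and *BECN1* and *ATG14* rose with *PIK3C3*. *PIK3C3* (VPS34) rose from 26.1 ± 1.04 to 35.7 ± 2.97 CPM at 6 h (1.37-fold) and from 22.4 ± 0.613 to 32.6 ± 2.25 CPM at 24 h (1.46-fold). *PIK3R4* (VPS15), the regulatory subunit that binds it, fell from 54.9 ± 1.03 to 38.6 ± 1.91 CPM (0.703 of DMSO, adjusted p = 2.93e-06) and from 67.8 ± 1.75 to 49.0 ± 0.992 CPM (0.722 of DMSO, adjusted p = 4.97e-06). Both calls of both genes held in every alternative that was run. *BECN1* rose 1.19-fold and 1.14-fold, and *ATG14*, which directs the complex to autophagy, 1.27-fold and 1.34-fold. The call of *BECN1* at 24 h was lost without DMSO replicate 1 or 2 or NXP800 replicate 2 (adjusted p 0.0651 to 0.0920). *AMBRA1*, a scaffold of the complex, was called at 24 h only (1.13-fold, adjusted p = 0.0401), and not without DMSO replicate 2 or 3 or NXP800 replicate 1 or 3 (adjusted p 0.0813 to 0.170).

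*UVRAG*, which takes the place of ATG14 in the endosomal form of the complex, was called at neither time. It had 20.3, 22.4 and 20.6 CPM in DMSO and 20.2, 19.3 and 17.0 CPM in NXP800 at 6 h, just apart. At 24 h it had 18.8, 18.8 and 18.3 CPM in DMSO and 17.9, 18.8 and 19.1 CPM in NXP800, which overlapped. With the replicate block it was called lower at 6 h (log2 -0.17, adjusted p = 0.0429). Annotated exons of *BECN1* and *ATG14* share 17.1% and 20.8% of their length with opposite-strand genes.

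Genes for membrane expansion were called in both directions. *WIPI1*, a PI3P-binding protein of the early membrane, rose 1.27-fold at 6 h and 1.61-fold at 24 h. The former call was lost without DMSO replicate 1 or 3 or NXP800 replicate 2 (adjusted p 0.102 to 0.133), and 28.1% of its exon length is shared with opposite-strand genes. Its relative *WIPI2*, which recruits ATG16L1, fell at 6 h (0.866 of DMSO, adjusted p = 0.0306) and was not called at 24 h (0.986 of DMSO). The fall was not called without DMSO replicate 1 or 2 or NXP800 replicate 1 or 2 (adjusted p 0.0697 to 0.101), nor with DESeq2's Wald test (0.0707) or its size factors (0.0522). *ATG9A*, the scramblase of the vesicles that seed the membrane, fell at 24 h (0.795 of DMSO, adjusted p = 0.00121), and at 6 h it was called lower only with the block (adjusted p = 0.0191). For *ATG9A* 38.8% of the exon length lies in a same-strand gene.

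The lipid transfer proteins ATG2A and ATG2B responded differently at the 2 times. *ATG2A* had 14, 13.5 and 15.5 CPM in DMSO and 16.0, 17.6 and 19.9 CPM in NXP800 at 6 h. By 24 h its levels were 20.5, 20.8 and 18.9 CPM in DMSO and 17.4, 19.9 and 18.9 CPM in NXP800. It rose 1.24-fold at 6 h (adjusted p = 0.0113) with the groups apart, and the groups overlapped at 24 h (0.934 of DMSO, adjusted p = 0.397). The rise was not called without DMSO replicate 2 (log2 0.27) or NXP800 replicate 3 (log2 0.23). *ATG2B* had 30.1, 30.6 and 33.5 CPM in DMSO and 35.5, 33.3 and 34.2 CPM in NXP800 at 6 h. The 24 h libraries held 35.7, 34.8 and 31.1 CPM in DMSO and 25.6, 29.3 and 27.4 CPM in NXP800. It was not called at 6 h (1.09-fold, adjusted p = 0.175) and fell at 24 h (0.811 of DMSO, adjusted p = 0.00323), where the groups were apart. The differences of the responses were -0.41 ± 0.14 for *ATG2A* (adjusted p = 0.0332) and -0.43 ± 0.11 for *ATG2B* (adjusted p = 0.00840). That of *ATG2A* was lost in 7 of the 12 fits without a single library (adjusted p up to 0.0940): without DMSO replicate 1 or 2 or NXP800 replicate 2 or 3 of 6 h, and without DMSO replicate 1 or 2 or NXP800 replicate 1 of 24 h.

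The conjugation enzymes changed little in size, all within log2 -0.38 and 0.36. The ubiquitin-like *ATG12* rose 1.24-fold and 1.28-fold, and its partner *ATG5* 1.20-fold and 1.17-fold. *ATG16L1*, which joins them in one ligase complex, fell at both times (0.796 of DMSO, adjusted p = 0.000190, and 0.853 of DMSO, adjusted p = 0.00325). *ATG7*, the activating enzyme of the cascade, was called at 24 h (1.17-fold, adjusted p = 0.0461) and not at 6 h (1.15-fold, adjusted p = 0.0796), where the block (0.00506), library size only (0.0499) and a fit of the 6 libraries of that time (0.0155) called it. The 24 h call was lost without DMSO replicate 1 or 2 or NXP800 replicate 3 (adjusted p 0.128 to 0.251), and 18.1% of its exon length is shared with an opposite-strand gene. *ATG10*, which transfers ATG12, was called at neither time, with means of 6.12 and 5.27 CPM at 6 h and 5.84 and 5.41 CPM at 24 h.

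*ATG3*, the enzyme that passes ATG8 proteins to lipid, was the most abundant conjugation gene called at neither time. It had 114, 122 and 100 CPM in DMSO and 125, 124 and 118 CPM in NXP800 at 6 h. Its values at 24 h were 101, 93.1 and 104 CPM in DMSO and 92.2, 93.5 and 105 CPM in NXP800. The groups overlapped at both times, although the block (log2 0.13, adjusted p = 0.0317) and a fit of the 6 libraries of that time (log2 0.16, adjusted p = 0.0483) called it higher at 6 h.

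The 4 ATG4 proteases, which prepare ATG8 proteins for lipid attachment and cut them off again, did not move together. *ATG4B*, the most active on LC3B, had 75.1, 76.1 and 78.9 CPM in DMSO and 70.4, 67.7 and 67.5 CPM in NXP800 at 6 h. At 24 h it had 87.4, 88.5 and 88.5 CPM in DMSO and 97.7, 102 and 99.6 CPM in NXP800. NXP800 thus lay below DMSO at 6 h (0.893 of DMSO, adjusted p = 0.0166) and above it at 24 h (1.13-fold, adjusted p = 0.00782), without overlap. The difference of the responses was 0.34 ± 0.075 (adjusted p = 0.00313) and was called without each library in turn. The 6 h call was not, with adjusted p of 0.0578 to 0.0670 without DMSO replicate 3 or NXP800 replicate 2 or 3, and 0.115 without a filter on low counts.

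*ATG4D* had 21.9, 20.6 and 21.4 CPM in DMSO and 20.1, 20.2 and 20.7 CPM in NXP800 at 6 h. By 24 h its levels were 31.8, 28.3 and 32.4 CPM in DMSO and 24.1, 23.9 and 23.0 CPM in NXP800. The groups overlapped at 6 h and were apart at 24 h (0.768 of DMSO, adjusted p = 0.000283). Its difference of the responses, -0.31 ± 0.10 (adjusted p = 0.0341), was called in only 3 of the 12 fits without a single library: those without DMSO replicate 2, or NXP800 replicate 1 or 2, of 24 h. The other 9 gave an adjusted p of up to 0.0809 and -0.28 to -0.33, and 14.7% of its exon length is shared with an opposite-strand gene. *ATG4C* fell at 6 h (0.838 of DMSO, adjusted p = 0.0282), which was lost without DMSO replicate 1 or 2 or NXP800 replicate 1 or 3 (adjusted p 0.0567 to 0.0955). *ATG4A* fell at 24 h (0.814 of DMSO, adjusted p = 0.0232), which was lost without DMSO replicate 3 or NXP800 replicate 1 or 2 (adjusted p 0.0518 to 0.0792).

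The ATG8 family held the largest rise of the 40 genes. *MAP1LC3B*, which encodes LC3B, lies at chr16:87392336-87404774 and had 103, 100 and 101 CPM in DMSO and 423, 416 and 358 CPM in NXP800 at 6 h. The 24 h libraries held 85.6, 86.4 and 98.9 CPM in DMSO and 277, 264 and 199 CPM in NXP800. Every NXP800 library lay above every DMSO library at both times. The change was 3.94-fold at 6 h (log2 1.98 ± 0.11, adjusted p = 5.55e-10) and 2.73-fold at 24 h (log2 1.45 ± 0.10, adjusted p = 9.32e-09). The response was smaller at 24 h by 0.53 ± 0.14 on the log2 scale (adjusted p = 0.0134).

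*GABARAPL1*, whose protein was first found as an early estrogen-regulated product, followed the same course at a lower level. It had 12.7, 10.9 and 11.0 CPM in DMSO and 34.1, 29.8 and 29.1 CPM in NXP800 at 6 h. Its values at 24 h were 11.7, 12.6 and 12.4 CPM in DMSO and 20.7, 22.9 and 20.1 CPM in NXP800. The groups were apart at both times, with a 2.69-fold change at 6 h (adjusted p = 4.61e-09) and a 1.73-fold change at 24 h (adjusted p = 2.37e-06). The difference of the responses was -0.64 ± 0.13 (adjusted p = 0.00208). The antisense gene *GABARAPL1-AS1* had 0 to 7 counts per library.

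The remaining ATG8 genes did not share these rises. *GABARAP*, the only ATG8 gene called at neither time, had 79.3, 91.5 and 84.0 CPM in DMSO and 78.8, 81.5 and 73.9 CPM in NXP800 at 6 h. At 24 h it had 66.7, 64.1 and 70.8 CPM in DMSO and 70.3, 64.3 and 82.6 CPM in NXP800, and the groups overlapped at both times. The highest 24 h value was that of NXP800 replicate 3, and the gene was called higher without NXP800 replicate 2 (log2 0.21, adjusted p = 0.0435) or with library size only (log2 0.20, adjusted p = 0.0466). Other annotated genes share 48.2% of its exon length, 35.4% on the same strand. *GABARAPL2* (GATE-16) was not called at 6 h (0.929 of DMSO) and was called lower at 24 h (0.883 of DMSO, adjusted p = 0.0368), with groups that overlapped. That call was lost without DMSO replicate 2 or 3 or NXP800 replicate 1 or 2 (adjusted p 0.0678 to 0.177), with DESeq2's Wald test (0.0654) and with library size only (0.279).

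*MAP1LC3A* (LC3A) was the least expressed of the 40 genes, with 11 to 29 counts per library. It had 0.665, 0.504 and 0.486 CPM in DMSO and 0.890, 0.734 and 0.675 CPM in NXP800 at 6 h. By 24 h its levels were 0.937, 0.841 and 0.721 CPM in DMSO and 0.429, 0.439 and 0.351 CPM in NXP800. NXP800 lay above DMSO at 6 h, where the test did not call it (1.39-fold, adjusted p = 0.128), and below DMSO at 24 h (0.490 of DMSO, adjusted p = 0.00360). The difference of the responses was -1.50 ± 0.37 (adjusted p = 0.00688), and its standard error was the widest of the 40.

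**Figure D2:**
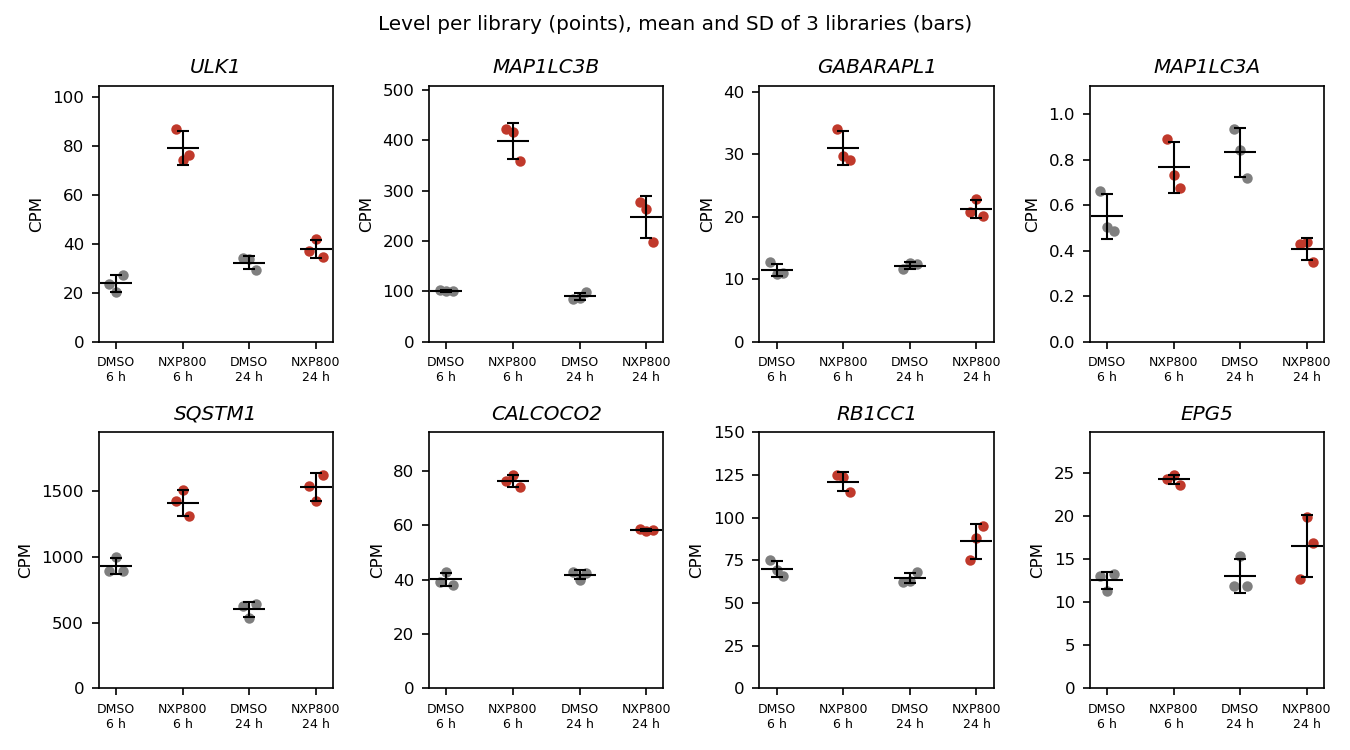
Level of 8 genes in each library (points, CPM) with the mean and SD of the 3 libraries (black bars), for DMSO (grey) and NXP800 (red) at 6 h and 24 h. *ULK1* falls back near DMSO at 24 h (37.9 against 32.3 CPM), and *MAP1LC3B* stays above it (247 against 90.3 CPM). *SQSTM1* stands at 1530 against 600 CPM at 24 h, and at 1410 against 927 CPM at 6 h.

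Levels per kb of the MANE Select transcript allow ATG8 genes to be set side by side. In DMSO at 6 h *GABARAPL2* stood at 70.9 ± 4.80 CPM per kb and *GABARAP* at 64.4 ± 4.64. By this length *GABARAPL2* was the higher of the pair in each of the 12 libraries. *MAP1LC3B* followed at 47.2 ± 0.558, then *GABARAPL1* at 6.12 ± 0.533 and *MAP1LC3A* at 0.573 ± 0.102. The order of *GABARAPL2* and *GABARAP* depends on the length used. All annotated exons merged span 3010 bases for *GABARAPL2* and 1951 for *GABARAP*, whose CPM in DMSO at 6 h was higher (84.9 against 69.1). With merged exon length *GABARAP* is therefore the higher of the pair there. In NXP800 at 6 h *MAP1LC3B* was the most abundant, at 186 ± 16.5 CPM per kb, and at 24 h it stood at 115 ± 19.4, above *GABARAPL2* (63.0 ± 4.58) and *GABARAP* (54.9 ± 7.06). Its share of all ATG8 transcripts was 25.8, 23.5 and 25.6% in DMSO and 57.4, 57.4 and 55.0% in NXP800 at 6 h. At 24 h it was 24.1, 24.0 and 25.3% in DMSO and 50.8, 50.2 and 39.5% in NXP800, where replicate 3 was the lowest. The summed ATG8 level was 189 ± 8.06 CPM per kb in DMSO and 328 ± 21.3 in NXP800 at 6 h, and 172 ± 9.12 and 244 ± 9.53 at 24 h. These sums and shares follow from values already described and were not tested.

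**Figure D3:**
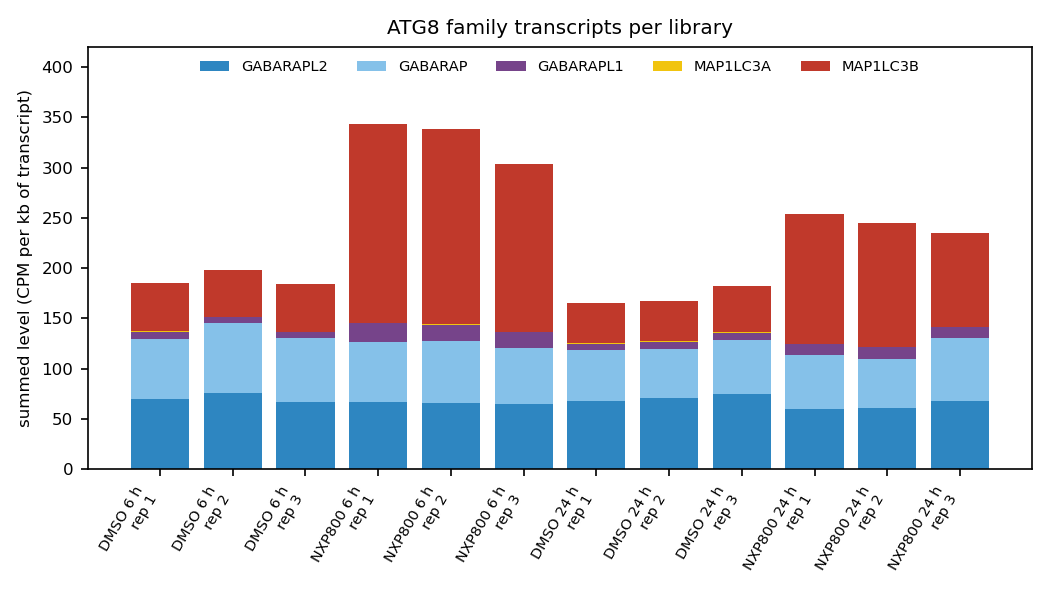
Summed level of the 5 ATG8 genes in each library, in CPM per kb of transcript, stacked by gene. The *MAP1LC3B* part (red) grows from 46.6 to 47.8 in DMSO to 167 to 197 in NXP800 at 6 h, while the *GABARAP* and *GABARAPL2* parts stay of similar height.

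The stacked plot of ATG8 transcripts rests on reads assigned to single genes, and several ATG8 genes have near copies. *MAP1LC3B2*, an intronless copy of *MAP1LC3B*, had 5 to 10 counts per library in DMSO and 15 to 29 in NXP800 at 6 h, and 13 to 18 and 30 to 42 at 24 h. *MAP1LC3B* itself had 2560 to 13766. Reads of *MAP1LC3B* placed on the copy and transcripts of the copy cannot be told apart in these counts. *GABARAPL3*, a near copy of *GABARAPL1*, had 0 to 4 counts per library, and the pseudogene *MAP1LC3BP1* had none.

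Among the cargo receptors *SQSTM1* was the most abundant and the only one whose response was called larger at 24 h. It encodes p62, which carries ubiquitinated proteins to LC3 and also binds KEAP1. The gene (chr5:179806393-179838078) had 891, 997 and 895 CPM in DMSO and 1420, 1510 and 1310 CPM in NXP800 at 6 h. Its values at 24 h were 625, 532 and 642 CPM in DMSO and 1540, 1420 and 1620 CPM in NXP800. Every NXP800 library lay above every DMSO library, by 1.52-fold at 6 h (adjusted p = 2.07e-05) and 2.55-fold at 24 h (adjusted p = 2.98e-09). The difference of the responses was 0.74 ± 0.12 (adjusted p = 0.000348). From 6 h to 24 h the DMSO mean went from 927 to 600 CPM and the NXP800 mean from 1410 to 1530 CPM. The larger response thus lay more in the lower DMSO level than in a higher level with NXP800. Per kb, *SQSTM1* made up 76.5% ± 1.05 of the transcripts of the 7 receptors in DMSO and 80.1% ± 0.455 in NXP800 at 6 h, and 68.1% ± 1.30 and 82.6% ± 0.361 at 24 h. Opposite-strand genes (*MGAT4B* and *MRNIP*) share 22.4% of its annotated exon length.

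*CALCOCO2* (NDP52), a receptor for bacteria and mitochondria, rose at both times but less at 24 h. It had 39.3, 42.9 and 38.2 CPM in DMSO and 76.3, 78.5 and 74.1 CPM in NXP800 at 6 h. At 24 h it had 42.9, 39.9 and 42.6 CPM in DMSO and 58.5, 57.8 and 58.4 CPM in NXP800. The groups were far apart for their spread, at 1.90-fold (adjusted p = 7.03e-09) and 1.39-fold (adjusted p = 7.61e-06), and the difference of the responses was -0.45 ± 0.088 (adjusted p = 0.00145). Its relative *TAX1BP1* rose 1.42-fold at both times. *NBR1*, which acts with p62 in gathering ubiquitinated proteins, rose 1.31-fold and 1.15-fold, and *OPTN*, a receptor in the removal of damaged mitochondria, 1.55-fold and 1.38-fold. The 24 h calls of *NBR1* and *OPTN* were lost without DMSO replicate 1 or 2 or NXP800 replicate 3 (adjusted p 0.163 to 0.187 and 0.0760 to 0.157).

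BNIP3 and its relative NIX (*BNIP3L*) sit in the outer mitochondrial membrane and bind ATG8 proteins without ubiquitin. *BNIP3L* rose at 6 h (1.27-fold, adjusted p = 0.00463) and was not called at 24 h (1.15-fold, adjusted p = 0.0793), where the block (0.00470) and the omission of DMSO replicate 3 (0.0290), among other settings, called it. *BNIP3*, a target of hypoxia signalling, was called at neither time. It had 77.9, 75.5 and 70.0 CPM in DMSO and 71.4, 71.4 and 69.2 CPM in NXP800 at 6 h. By 24 h its levels were 73.9, 69.6 and 81.9 CPM in DMSO and 79.8, 69.4 and 78.0 CPM in NXP800, and the groups overlapped at both times.

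Both fusion genes rose. *EPG5*, a tether between autophagosomes and lysosomes, had 13.0, 11.3 and 13.2 CPM in DMSO and 24.2, 24.7 and 23.6 CPM in NXP800 at 6 h. The 24 h libraries held 11.9, 15.3 and 11.9 CPM in DMSO and 12.7, 19.9 and 16.8 CPM in NXP800. The groups were far apart at 6 h (1.94-fold, adjusted p = 2.09e-05) and overlapped at 24 h (1.27-fold, adjusted p = 0.0436). The 24 h call was lost without DMSO replicate 1 or 3 or NXP800 replicate 2 or 3 (adjusted p 0.0845 to 0.206). The difference of the responses, -0.61 ± 0.19 (adjusted p = 0.0280), was lost without DMSO replicate 2 or NXP800 replicate 1 or 2 of 6 h, and without DMSO replicate 2 or NXP800 replicate 1 of 24 h (adjusted p 0.0530 to 0.0837, -0.46 to -0.61). *STX17*, the SNARE of the completed autophagosome, rose 1.26-fold and 1.27-fold (adjusted p = 0.00257 and 0.00202).

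**Figure D4:**
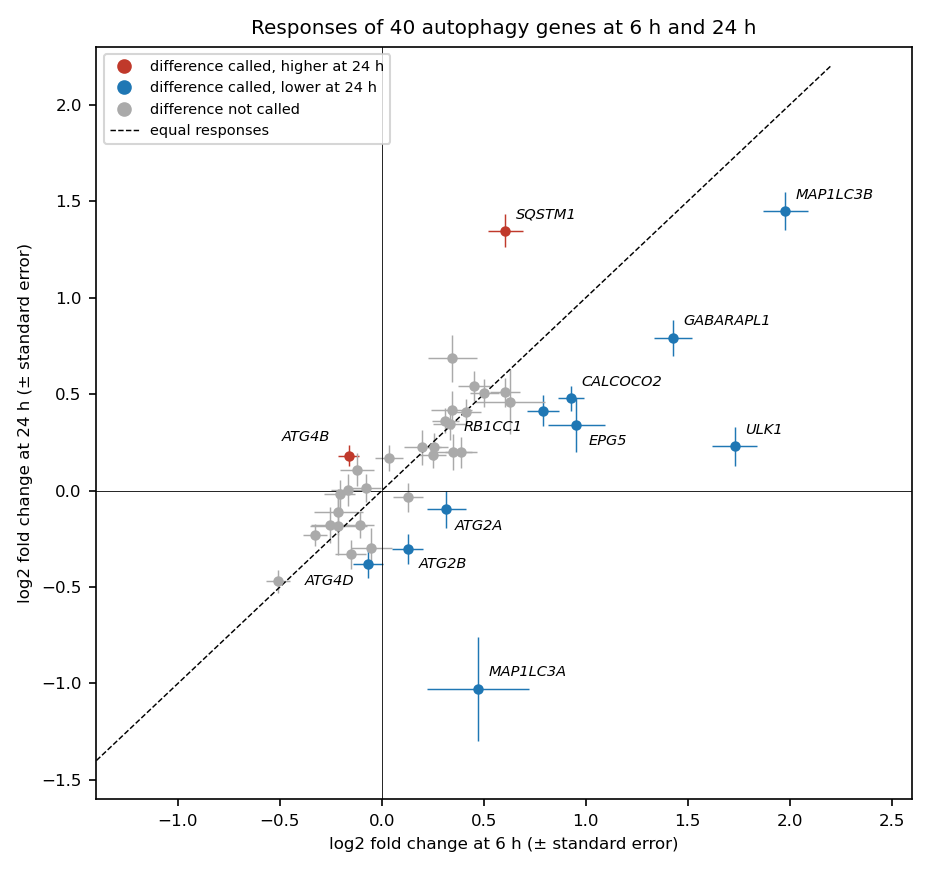
Log2 fold change at 24 h against that at 6 h for the 40 genes, with standard errors; the dashed line marks equal responses. Named points differed between the times by the test of the difference: *SQSTM1* and *ATG4B* lie above the line, and the other 10, with *ULK1* and *MAP1LC3A* farthest from it at -1.50 each, below.

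In the plot of both responses, 28 of the 40 genes had no called difference, as had 11850 of all 15979 genes tested. A difference that was not called does not show that the responses were equal. The 28 genes include *PIK3R4* and *TAX1BP1*, whose responses differed by 0.04 ± 0.084 and 0.00 ± 0.10. For 12 of the 40 genes (*ATG3*, *ATG5*, *ATG7*, *ATG10*, *ATG12*, *ATG16L1*, *BECN1*, *GABARAP*, *GABARAPL2*, *MAP1LC3B*, *NBR1* and *SQSTM1*) dependence on ATF4 or CHOP under amino acid shortage has been described in other cells, a list written from general knowledge. Of these 12, 6 rose and 1 fell at 6 h, with a median log2 fold change of 0.22, against 15 and 4 of the other 28 with a median of 0.34. At 24 h 7 rose and 2 fell (median 0.19), against 14 and 6 of the other 28 (median 0.19). Of all genes tested, 25.0% were called higher and 27.8% lower at 6 h (median -0.0458), and 27.5% and 28.6% at 24 h (median -0.00334). The list of 12 holds *MAP1LC3B* and *SQSTM1* but also several genes with small or no called change. Dependence on ATF4 or CHOP was not tested.

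Genes around the machinery were read from lists of the same kind. For each list the shares of all genes tested were 25.0% called higher and 27.8% lower at 6 h, and 27.5% and 28.6% at 24 h. Of 28 tested genes of mTORC1 and its nutrient inputs, 6 rose and 7 fell at 6 h, near these shares. At 24 h 7 of them rose and 11 fell. The largest changes were those of *SESN2*, which restrains mTORC1 when leucine is short (log2 4.40 ± 0.17 and 3.19 ± 0.17), and *DDIT4* (REDD1), which restrains it under stress (3.49 ± 0.19 and 2.41 ± 0.18). A list of 9 genes held the AMPK subunits and the LKB1 complex that activates AMPK (*STK11*, *STRADA* and *CAB39*). Of these, 5 rose and 1 fell at 6 h, and 6 rose and 1 fell at 24 h. The gene that fell was *STK11* (LKB1) at both times (-0.44 ± 0.074 and -0.30 ± 0.073). The largest rise was that of the subunit *PRKAB2* (1.21 ± 0.097 and 1.34 ± 0.098). *PRKAA2* was next at 6 h (0.94 ± 0.14) and *PRKAB1* at 24 h (0.44 ± 0.081). Of 12 transcription factors of autophagy genes, 10 rose and 2 fell at 6 h, and 6 rose and 1 fell at 24 h. *DDIT3* (CHOP) changed by 3.05 ± 0.12 and 3.01 ± 0.12 and *CEBPB* by 2.51 ± 0.077 and 2.28 ± 0.077 on the log2 scale.

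Further parts of the pathway outside the 40 genes moved in both directions. Of 11 tested genes of further core machinery 6 rose and 0 fell at 6 h, and 5 rose and 1 fell at 24 h. Among those whose mean log2 CPM reached 1, the largest change was that of *WDR45* (WIPI4), a PI3P effector that binds ATG2 (0.99 ± 0.090 and 1.52 ± 0.090), with *NRBF2*, a subunit of the lipid kinase complex, next at 6 h (0.73 ± 0.070) and *ZFYVE1* (DFCP1), a PI3P-binding protein, at 24 h (0.76 ± 0.082). *MAP1LC3B2*, a near copy of *MAP1LC3B* on the same list whose counts are uncertain for that reason, lay below that level (1.65 ± 0.35 and 1.14 ± 0.30). Of 20 further receptors and their regulators 4 rose and 6 fell at 6 h, and 7 rose and 4 fell at 24 h. Among these the ER receptor *CALCOCO1* rose (0.69 ± 0.14 and 0.93 ± 0.14), *RTN3* fell at both times (-0.63 ± 0.092 and -0.39 ± 0.091), and *CCPG1*, also an ER receptor, rose at 24 h (0.55 ± 0.15). Of 13 further fusion genes 4 rose and 2 fell at 6 h, and 7 rose and 0 fell at 24 h. *RUBCNL* (Pacer), which promotes autophagosome maturation, changed by 3.15 ± 0.22 and 3.14 ± 0.23 and the adaptor *PLEKHM1* by 0.53 ± 0.089 and 0.65 ± 0.089. The backgrounds given for the 40 genes hold for these lists too, and no list was tested as a set.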

How the data were processed

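The deposited values are raw read counts per gene symbol, which the authors made from reads trimmed by fastp 0.20.1 and aligned to hg38 by STAR 2.7.5a, tallied over the RefSeq annotation with HTSeq 0.12.4. The study's methods name a strand-specific library kit. The strand setting and the mode of the counting step are not given in the sources used here, and reads of overlapping genes may be affected. The dose comes from the study's methods. The counter's summary entries, which belong to no gene, entered neither library sizes nor tests. The analysis used edgeR 4.0.16 and limma 3.58.1 under R 4.3.3. filterByExpr kept 15979 of 43236 symbols, scaling was by TMM, and a single model of all 4 conditions (common dispersion 0.007231) gave the quasi-likelihood tests. NXP800 was compared with DMSO at each time, and the 2 responses with each other, with Benjamini-Hochberg adjustment over all genes tested and a threshold of 0.05.

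Replicates differed by more than sampling noise (chi-square divided by its degrees of freedom, 7.36 to 26.3, where genes had 20 counts or more). Libraries of the same replicate number deviated together across genes, which are not independent (r 0.159 to 0.329 against at most 0.058 for different numbers). The replicate numbers in the labels are the source of this pairing. Alternatives were DESeq2 1.42.0 (Wald test, size factors), library size only, no filter, a filter of 10 counts in each library, a fit of the 6 libraries of a time alone, the replicate block, an adjusted p below 0.01, and each library left out in turn. The procedure was tested on simulated data.

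Lengths and exon overlaps are from GENCODE, and its models may not be those the reads were counted on. The 40 genes, the lists and the motifs were chosen with earlier results of these data known. Every gene of the 40 is accounted for. Values per library are given for genes called with a log2 fold change of at least 0.8 in size, for genes whose responses differed, and for the most abundant uncalled gene of each role. In other lists the 2 called genes with the largest change at each time and a mean log2 CPM of at least 1 are named. A planned comparison of ATG8 protein sequences was not made here.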

Additional observations from a re-analysis of the deposited data

Results flagged for a closer look

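For 12 of the 40 genes the response to NXP800 differed between 6 h and 24 h by edgeR's test of the difference itself, with adjustment over all genes tested. Of these, 2 were higher and 10 lower, where 12% of all genes tested were called higher and 13.8% lower. With the replicate block 4 were higher and 11 lower, against 2945 and 3339 of all 15979 genes tested. With scaling by library size only, 2 were higher and 6 lower, against 2463 and 1670. Values are the log2 response at 24 h minus that at 6 h. Each also rests on the DMSO levels, which could differ between the times. The DMSO mean went from 927 to 600 CPM for *SQSTM1* (NXP800 1410 to 1530). It went from 14.3 to 20.1 CPM for *ATG2A* (NXP800 17.8 to 18.8) and from 21.3 to 30.8 CPM for *ATG4D* (NXP800 20.3 to 23.7). For *ULK1* the NXP800 mean changed more, from 79.1 to 37.9 CPM (DMSO 23.8 to 32.3). The response was larger or turned upward for *SQSTM1* (0.741 ± 0.12, adjusted p = 0.000348) and *ATG4B* (0.344 ± 0.075, adjusted p = 0.00313). It was smaller for *ULK1* (-1.50 ± 0.15, adjusted p = 3.66e-06), *GABARAPL1* (-0.637 ± 0.13, adjusted p = 0.00208), *CALCOCO2* (-0.451 ± 0.088, adjusted p = 0.00145), *MAP1LC3B* (-0.530 ± 0.14, adjusted p = 0.0134), *RB1CC1* (-0.376 ± 0.11, adjusted p = 0.0232) and *EPG5* (-0.611 ± 0.19, adjusted p = 0.0280). It went from a value above 0 at 6 h to one below 0 at 24 h for *MAP1LC3A* (-1.50 ± 0.37, adjusted p = 0.00688), *ATG2B* (-0.430 ± 0.11, adjusted p = 0.00840) and *ATG2A* (-0.414 ± 0.14, adjusted p = 0.0332), although the 6 h value of *MAP1LC3A* (adjusted p = 0.128), the 6 h value of *ATG2B* (adjusted p = 0.175) and the 24 h value of *ATG2A* (adjusted p = 0.397) were not called. The response was more negative at 24 h for *ATG4D* (-0.312 ± 0.10, adjusted p = 0.0341). Of the 12 fits that left out a single library, 9 lost the difference for *ATG4D*, 7 for *ATG2A*, 5 for *EPG5* and 4 for *RB1CC1*. Without a filter on low counts edgeR's test no longer called *ATG4D* (adjusted p = 0.157) or *ATG2A* (adjusted p = 0.0506). The 6 h and 24 h libraries also differed in how many read pairs fell outside annotated genes, 6.66 to 8.14% against 2.73 to 3.67%, and its part in these differences was not tested.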

How the results depend on the processing

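With 3 libraries per condition and these depths, the smallest called change was that of *ATG4B* at 6 h (log2 -0.16), and *MAP1LC3A* is limited by its low counts. The replicate block lost no call among the 40 genes. Its gains stand with the results, and it gave 4 in place of 2 larger responses at 24 h. Of the 40 changes at 6 h and at 24 h, respectively, calls were lost for 1 and 1 with DESeq2 size factors, 1 and 2 with its Wald test, 1 and 4 with library size only, 1 and 3 without a filter, 0 and 5 with only the 6 libraries of the time, and 5 and 8 at an adjusted p below 0.01, and the filter of 10 counts changed no call. The median log2 fold change at 6 h, 0.285, was 0.300 with DESeq2 size factors, 0.302 with library size only and with the Wald test, 0.317 with only the 6 libraries of the time, and 0.254 to 0.282 without a single library. Genes called lower at 6 h, 5, became 2 at an adjusted p below 0.01 and 3 to 4 without a single library. At 24 h, library size only gave 4 lower genes in place of 8 and a median of 0.283 in place of 0.190, with all genes tested centred at 0.0859. Without a single library the 24 h counts were 16 to 20 higher and 6 to 9 lower, and the median 0.149 to 0.211. Smaller responses at 24 h, 10, became 6 with library size only, 5 below 0.01 and 6 to 10 without a single library, and larger ones 2 to 3. Changes near 0 that turned sign, none of them called, were *WIPI2* at 24 h (0.0662 with library size only, -0.0809 to 0.0897 without a single library), *ATG3* at 24 h (0.0553, and -0.0969 to 0.0162), *ATG4A* at 6 h (-0.124 to 0.0403), *UVRAG* at 24 h (-0.0182 to 0.0286) and *BNIP3* at 24 h (-0.0419 to 0.0978). The cause was not tested. With merged exon length, an alternative chosen after seeing the data, the *MAP1LC3B* share of ATG8 transcripts was 22.4% and 53.2% at 6 h and 22.6% and 43.6% at 24 h.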

Other observations

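The MiT/TFE factors, which bind E-boxes of lysosomal and autophagy genes, differed in their course. They were singled out here after their values were seen. *MITF* rose from 13.6 ± 0.212 to 32.4 ± 3.75 CPM at 6 h (log2 1.25, adjusted p = 7.87e-08) and fell from 13.5 ± 1.52 to 9.49 ± 0.976 CPM at 24 h (log2 -0.51, adjusted p = 0.000943). *TFEB* rose at 6 h (log2 0.64, adjusted p = 0.00785) and was not called at 24 h (log2 -0.21, adjusted p = 0.353). *TFE3*, the most abundant of these factors at 85.1 ± 5.11 CPM in DMSO at 6 h, rose at both times (log2 0.75 and 0.48). The responses differed between the times by edgeR's test for *MITF* (-1.76, adjusted p = 1.19e-06) and *TFEB* (-0.85, adjusted p = 0.0259), and did not pass for *TFE3* (-0.26, adjusted p = 0.0877). *FOXO3*, another activator of autophagy genes, rose from 61.8 ± 3.74 to 150 ± 9.96 CPM at 6 h and from 55.4 ± 7.31 to 120 ± 9.76 CPM at 24 h (log2 1.28 and 1.12).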
